A study of Mus musculus with 3 samples.

Results

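Solute carriers are the membrane proteins that move amino acids, sugars, ions, metals, nucleosides, lipids and metabolites across the plasma membrane and the membranes of organelles, either down a gradient or coupled to the flow of another ion, and not by hydrolysing ATP themselves. In mouse their genes share the symbol stem Slc, followed by a family number. Macrophages rely on them to take up arginine, taurine and glutamine, to handle iron and zinc from engulfed cells and microbes, to set the pH of endosomes and phagosomes, and to exchange metabolites with mitochondria.

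The genes described here are 180 of the 55536 gene entries annotated, and of 371 annotated genes with an Slc symbol and a protein-coding transcript. They were selected on measured values of these libraries, namely a mean expected count of at least 10 over 3 libraries, so their levels are given as a description with no test. Slc2a1, Slc2a6, Slc16a3, Slc7a2, Slc7a11, Slc40a1 and Slc11a1, a set of 7, also passed the minimum and were left out by name. The remaining 184 fell below the minimum, and 105 of those had no count in any library. Just inside the minimum stood Slc4a11, a borate-transporter relative, with 10, 8 and 12 expected counts, and Slc23a1, a vitamin C transporter, with 16, 10 and 8. Just outside it stood Slc41a3 and Slc19a2, with mean counts of 9.33 and 9. The label holds by symbol, but at least 3 members encode neither a carrier nor a carrier subunit. Slc9a3r1 encodes the scaffold protein NHERF1, Slc4a1ap the adaptor kanadaptin, and Slc7a6os is a gene on the strand opposite Slc7a6. Slc3a2 encodes a subunit, the heavy chain of carriers of family 7.

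The RNA came from the chromatin fraction of macrophages grown from bone marrow of C57BL/6J mice and treated with lipid A, the membrane anchor of bacterial lipopolysaccharide, at 100 ng/ml for 90 minutes. All 3 biological replicates belonged to this 1 group and carried 1 donor label, and ribosomal RNA was depleted. Sex and age are not given. No untreated cells were analysed here, so every value is a level after treatment, and in bulk RNA fewer cells of a type and less RNA per cell cannot be told apart. Input RNA differed, at 1 µg for the first library, 250 ng for the second and 500 ng for the third, and its effect and that of the replicate cannot be told apart.

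Depth ranged from 11277198 to 24965749 expected counts per library, of which the members held 100220 to 126935, or 1.19 to 1.30% of the counts in protein-coding genes. Entries at the ribosomal RNA locus took 9.30% of all counts for replicate 1, whereas replicates 2 and 3 had 50.8% and 38.3%. Replicate 1 stands apart in this and in the spread between libraries. All 10 macrophage markers passed the minimum, with a sum of 727 to 1256 TPM, a level per length scaled to the library's total. The lowest of them, Fcgr1 and Itgam, averaged 3.26 and 3.02 TPM. Summed TPM was 0 to 0.72 for 6 neutrophil markers, 0 to 0.13 for 5 T cell markers, 0 to 0.12 for 5 B cell markers, 0.49 to 2.55 for 5 erythroid markers and 0.48 to 2.05 for 6 stromal and endothelial markers. Of the stromal and endothelial markers 4 also passed the minimum, at means of 0.157 to 0.27 TPM. The defining erythroid marker Hbb-bs had no count in any library.

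The bases upstream of 4 genes are shown to place them in the genome. The first 3 belong to the highest members whose start in RefSeq (GRCm38.p6, the mm10 build) lay within 100 bases of the outer start in the annotation used for the counts, and the fourth to Slc30a1, the zinc exporter ZnT1, whose promoter is a known target of the metal-sensing factor MTF-1. Each run holds the 250 bases before the start, 5′ to 3′ on the plus strand, which is also the gene's strand: chr9:94669642-94669891 for Slc9a9, chr4:53440163-53440412 for Slc44a1, chr12:73286598-73286847 for Slc38a6 and chr1:191906531-191906780 for Slc30a1. Capitals mark matches to an AP-1 motif (TGANTCA) or to the core of a metal-response element (TGCACNC or TGCGCNC), searched on both strands.
Slc9a9: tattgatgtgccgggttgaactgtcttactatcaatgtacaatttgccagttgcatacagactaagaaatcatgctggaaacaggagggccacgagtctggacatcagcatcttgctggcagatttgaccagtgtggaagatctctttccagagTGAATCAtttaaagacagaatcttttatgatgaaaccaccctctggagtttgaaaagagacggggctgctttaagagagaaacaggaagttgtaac
Slc44a1: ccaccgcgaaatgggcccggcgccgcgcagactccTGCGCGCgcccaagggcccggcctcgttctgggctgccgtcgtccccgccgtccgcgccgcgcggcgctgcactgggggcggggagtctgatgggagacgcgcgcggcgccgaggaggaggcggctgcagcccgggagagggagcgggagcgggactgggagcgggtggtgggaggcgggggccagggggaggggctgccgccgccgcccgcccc
Slc38a6: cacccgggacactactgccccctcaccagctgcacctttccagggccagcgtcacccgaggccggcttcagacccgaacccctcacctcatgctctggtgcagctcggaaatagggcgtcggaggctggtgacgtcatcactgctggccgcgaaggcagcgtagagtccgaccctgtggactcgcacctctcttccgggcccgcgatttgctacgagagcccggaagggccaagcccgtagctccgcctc
Slc30a1: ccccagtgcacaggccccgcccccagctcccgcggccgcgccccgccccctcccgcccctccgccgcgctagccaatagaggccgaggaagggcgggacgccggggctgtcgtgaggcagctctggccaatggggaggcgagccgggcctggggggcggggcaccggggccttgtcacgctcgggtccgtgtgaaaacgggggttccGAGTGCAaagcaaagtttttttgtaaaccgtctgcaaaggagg
Slc9a9 carries 1 AP-1 match, which reads as the motif on either strand, in a window of 42.8% GC with 3 CG steps. Slc44a1 has a metal-response core in a window of 81.2% GC with 38 CG steps, Slc38a6 has no match at 66.4% GC, and Slc30a1 has the other core on the minus strand at 71.2% GC. Slc25a37, Slc6a6, Slc38a1, Slc11a2, Slc8b1 and Slc15a3 have no entry in the promoter table.

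Promoter windows of 250 bases before to 50 bases after the start were matched by symbol for 138 of the 180 members, giving 191 windows, some of them alternative starts of 1 gene that overlap. An NF-kB consensus, the motif of a main transcription factor downstream of TLR4, was found in 8.90% of the members' windows, against 10.5% of 10703 windows of expressed protein-coding genes and 8.46% of all 32851 windows. The E-box CACGTG, bound by TFEB, MITF and MYC, was in 14.7% of the members' windows, against 10.1% of windows of expressed genes and 7.15% of all windows. AP-1 matches were in 6.28% of the members' windows, 5.15% of those of expressed genes and 7.81% of all. A metal-response core of either form was in 35.6% of the members' windows, 35.2% of those of expressed genes and 25.7% of all. These matches are descriptions of letters, not binding sites.

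The level of a gene is log2(TPM + 1) minus the median over 10520 expressed protein-coding genes of the same library, which lay at 5.5, 3.7 and 4.92 TPM in replicates 1, 2 and 3. TPM of single genes are not adjusted for that difference, which is part of any order of replicates by TPM. A member is called above or below here when its level passed 1 or -1, a 2-fold distance on this scale, in all 3 libraries. By that rule 48 of the 180 members were above the median gene and 46 below. Among all 10520 expressed protein-coding genes 26.7% were above and 23.5% below, so the members' shares are near the background. The median member measured 3.43 TPM and the median of those genes 4.84 TPM. Against a median over genes with a mean count of at least 100, the split was 23 above and 95 below. Against a median over every annotated protein-coding gene it was 116 above and 0 below, so these counts depend on which genes set the reference. A new reference shifts all genes of a library alike. The shares of all expressed genes against these references were not computed, so these splits do not set the members apart.

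The members spanned 0.213 to 187 TPM on average. At least 1 TPM was reached by 145 members, at least 10 TPM by 60, at least 50 TPM by 12 and at least 100 TPM by 5. The 10 highest held 42.9% of the members' summed TPM, and 41.9 to 43.9% in the single libraries. Of the 10, all but Slc25a3 ranked among the first 10 in every library. Spearman's rho of the members' TPM between libraries, a description over 180 genes, was 0.928 for replicates 1 and 2, 0.943 for replicates 1 and 3, and 0.971 for replicates 2 and 3.

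**Figure D1:**
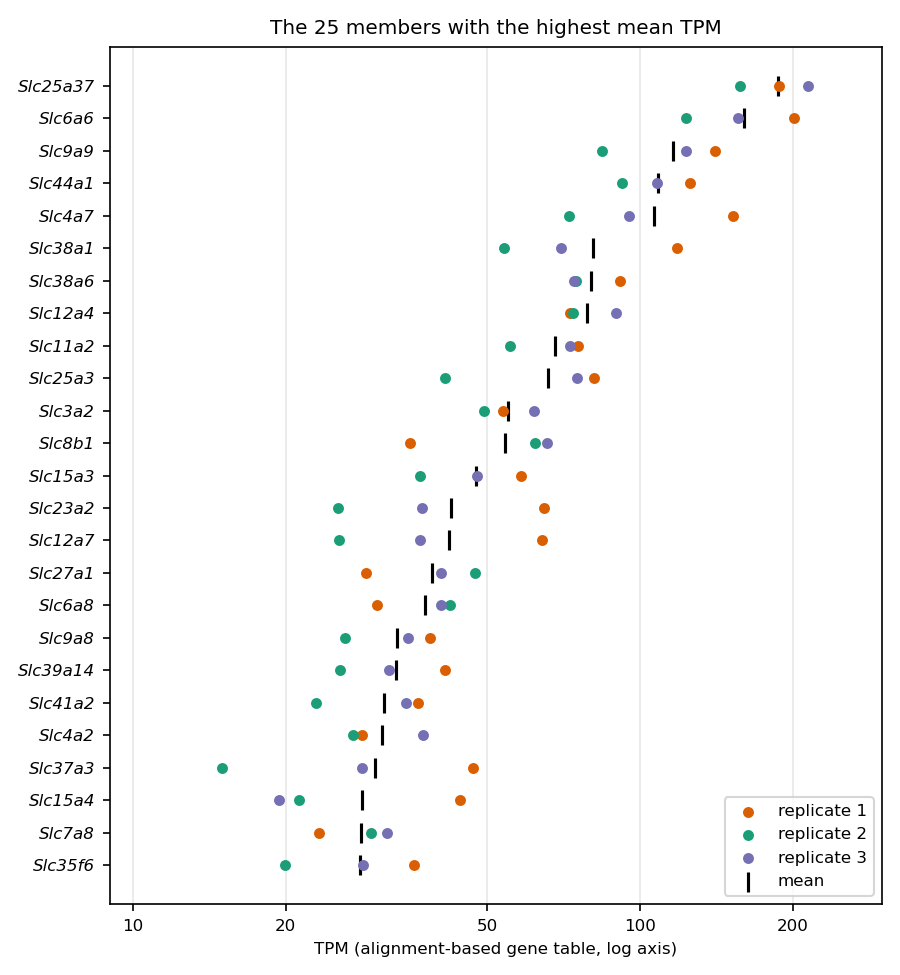
TPM of the 25 members with the highest mean, on a log axis, with 1 point per replicate and a tick for the mean. Slc25a37 and Slc6a6 lead in every library, and Slc8b1 is lower in replicate 1 than in replicates 2 and 3.

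Mitochondrial carriers of family 25 were the largest class, with 37 of 47 annotated genes passing the minimum. Of these, 8 were above and 8 below the median gene, beside 26.7% and 23.5% of expressed protein-coding genes. The class held 18.5 ± 0.736% of the members' TPM (SD, n = 3). Slc25a37, at chr14:69241848-69285112 on the minus strand (mm10), encodes mitoferrin-1, which carries iron into the mitochondrial matrix and is best known from red cell precursors. It measured 188, 158 and 214 TPM in replicates 1, 2 and 3, a level of 5.04 ± 0.16 log2 units (SD, n = 3) above the median gene and the highest of all members. Its relative Slc25a28, mitoferrin-2, stood at 21.95, 10.7 and 21.4 TPM. The erythroid marker Alas2 was at 2.55, 0.46 and 0.74 TPM, and the band 3 gene Slc4a1 had no count. The gene overlaps Gm20236, a locus on the same strand whose annotation awaits experimental verification, at 118, 76.8 and 77.0 TPM; how the counting divided reads between them is not stated.

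Slc25a3, which imports phosphate for ATP synthesis, measured 81.0, 41.2 and 75.2 TPM, lowest in replicate 2. It hosts the snoRNA Gm24119 on the same strand, at 229, 98.3 and 145 TPM. Slc25a51, the mitochondrial NAD+ importer, was at 38.6, 18.3 and 24.3 TPM. Carriers of citric acid cycle metabolites were lower: Slc25a10 (dicarboxylates) averaged 15.3 ± 1.96 TPM, Slc25a1 (citrate) 12.1 ± 1.95 TPM and Slc25a11 (2-oxoglutarate) 5.19 ± 1.15 TPM (SD, n = 3 each). The ADP/ATP carrier Slc25a5 averaged 8.45 ± 1.44 TPM. Slc25a15, the ornithine carrier of the urea cycle, was the lowest of the class at 0.44, 0.25 and 0.31 TPM.

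Carriers of amino acids and their derivatives counted 24 members out of 63 annotated genes, with a class median of 8.51 TPM. Above the median gene were 8 and below it 5, beside 26.7% and 23.5% of expressed protein-coding genes. Slc6a6, the taurine transporter, at chr6:91684053-91759066 on the plus strand, gave 201, 123 and 156 TPM. Slc38a1, which takes up glutamine and other small neutral amino acids with sodium, gave 118, 53.8 and 69.8 TPM, and its relative Slc38a6 91.4, 74.8 and 74.2 TPM. In each library Slc6a6 had the highest TPM of these. Replicate 1 had the highest TPM for all 3 genes, whereas in log2 CPM, which is scaled between libraries by TMM, Slc38a6 was lowest in replicate 1, at 7.16, 7.19 and 7.22. Slc38a2, the SNAT2 transporter that responds to amino acid starvation, was at 7.30, 7.36 and 7.66 TPM, which are levels of 0.35, 0.83 and 0.55 log2 units relative to the median gene of each library.

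Slc3a2 encodes the CD98 heavy chain, which brings several light chains of family 7 to the plasma membrane. The heavy chain stood at 53.8, 49.2 and 61.8 TPM. Among its light chains, Slc7a8 (LAT2) was at 23.3, 29.4 and 31.7 TPM, Slc7a7 (y+LAT1, an exporter of cationic amino acids) at 9.65, 8.54 and 13.0 TPM, and Slc7a6 (y+LAT2) at 1.90, 1.52 and 2.08 TPM. Slc7a5 (LAT1), the light chain best known from activated lymphocytes, did not pass the minimum, at 0.15, 0.23 and 0.26 TPM. The order Slc3a2, Slc7a8, Slc7a7, Slc7a6, Slc7a5 held in every library of the alignment-based table. In the alignment-free table Slc7a7 was the higher, at 81.2, 34.4 and 54.02 TPM, against 25.3, 19.1 and 25.3 TPM for Slc7a8.

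Slc43a2 (LAT4), another neutral amino acid carrier, was at 10.3, 20.2 and 20.5 TPM, lower in replicate 1. Slc38a9, the lysosomal arginine sensor of the mTORC1 pathway, averaged 10.5 ± 5.03 TPM and Slc36a1, a proton-coupled amino acid carrier, 9.30 ± 2.57 TPM (SD, n = 3 each). Slc1a5, the glutamine exchanger ASCT2, was close to the median gene at 5.56, 3.98 and 5.52 TPM, whereas Slc1a4 was below the minimum with a mean of 0.03 TPM. Slc1a2, the glutamate transporter GLT-1 of astrocytes, passed the minimum through 1 library: it had 141 expected counts in replicate 1 and 3 and 6 in replicates 2 and 3.

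Carriers of inorganic ions, 27 of 54 annotated genes, had 10 members above the median gene and 7 below. Among expressed protein-coding genes 26.7% were above and 23.5% below. The class held 23.99 ± 0.828% of the members' TPM, the largest share of any class (SD, n = 3). The amino acid class was close, at 22.7 ± 0.871%. By family number the ion class includes Slc9a3r1 and Slc4a1ap, neither of which encodes a carrier. The amino acid class includes Slc7a6os and lacks Slc7a2 and Slc7a11, which were left out by name. The order of the 2 classes without these choices was not computed. Slc9a9, at chr9:94669909-95230445 on the plus strand, encodes NHE9, a sodium-proton exchanger of endosomes; it measured 140, 84.3 and 123 TPM. Slc4a7, at chr14:14702279-14799940 on the plus strand, encodes the sodium bicarbonate cotransporter NBCn1, which supplies bicarbonate during phagocytosis, and it measured 152, 72.4 and 95.01 TPM. Both were lowest in replicate 2, as was the TPM of the median gene.

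Slc12a4 (KCC1), a potassium-chloride exporter, gave 72.6, 73.6 and 89.7 TPM. Slc12a2 (NKCC1), which imports sodium, potassium and chloride, was below the median gene at 1.19, 0.51 and 0.92 TPM. Slc12a4 was the higher of this pair in each library. Slc8b1, the mitochondrial sodium-calcium exchanger NCLX, was at 35.2, 61.9 and 65.4 TPM, and Slc8a1, the plasma membrane exchanger NCX1, at 13.5, 9.03 and 13.8 TPM. The scaffold gene Slc9a3r1, counted in this class by its symbol, was at 14.05, 18.7 and 26.9 TPM. At the bottom of the class stood Slc4a11 at 0.25, 0.19 and 0.27 TPM.

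Of 31 annotated genes for zinc, copper, iron, magnesium and heme carriers, 23 were members, 8 of them above the median gene and 2 below. Among expressed protein-coding genes 26.7% were above and 23.5% below. Slc11a2 (DMT1), which moves ferrous iron out of endosomes, at chr15:100387898-100425072 on the minus strand, measured 75.4, 55.5 and 72.7 TPM. Slc39a14 (ZIP14), an importer of zinc and iron, was at 41.3, 25.6 and 32.03 TPM, and Slc41a2, a magnesium carrier, at 36.4, 22.99 and 34.5 TPM. The related zinc importer Slc39a8 (ZIP8) was at 2.42, 0.52 and 0.99 TPM, highest in replicate 1, and Slc39a10 (ZIP10) at 4.57, 0.75 and 2.99 TPM.

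Slc30a1 (ZnT1), which exports zinc from the cell, stood at 3.13, 1.20 and 1.49 TPM. The Golgi zinc carrier gene Slc30a5 was near the median gene at 6.77, 3.29 and 4.39 TPM. For copper, the endosomal Slc31a2 (CTR2) gave 33.6, 16.1 and 22.1 TPM, and the main uptake gene Slc31a1 (CTR1) gave 5.74, 2.36 and 2.95 TPM; CTR2 was the higher in every library. The heme carrier gene Slc48a1 (HRG1) was at 2.79, 1.99 and 2.77 TPM, and Slc41a1 was the lowest of the class at 1.07, 0.35 and 1.22 TPM.

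Lipid and choline carriers were few, 5 of 13. Slc44a1 (CTL1), the main choline transporter for phosphatidylcholine synthesis in macrophages, at chr4:53440413-53622478 on the plus strand, measured 126, 92.0 and 108 TPM. Slc27a1 (FATP1), which promotes fatty acid uptake, was at 28.8, 47.4 and 40.5 TPM, lower in replicate 1. Slc44a2 averaged 10.6 ± 2.63 TPM (SD, n = 3). Slc51a, a subunit of the steroid and bile acid exporter, was the lowest at 1.44, 0.19 and 0.10 TPM, and its partner gene Slc51b had no count.

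Peptide carriers and vesicular carriers made a class of 7 members, with 2 above the median gene and 2 below. The shares among expressed protein-coding genes were 26.7% above and 23.5% below. Slc15a3 (PHT2) measured 58.2, 36.8 and 47.6 TPM and Slc15a4 (PHT1) 44.1, 21.2 and 19.4 TPM; both carry histidine and bacterial peptides such as muramyl dipeptide out of endosomes. Slc15a2 (PEPT2) differed most between libraries of all members over 1 TPM, at 3.88, 1.03 and 0.41 TPM. Slc18a1, a vesicular monoamine transporter, was at 5.37, 4.13 and 7.41 TPM on only 22, 23 and 31 expected counts. Most of that TPM lay on a short processed transcript of 2 exons at 3.54, 3.35 and 6.17 TPM, and a coding transcript of 4 exons was at 1.58, 0.60 and 1.07 TPM. In the alignment-free table the processed transcript was at 6.40, 1.36 and 7.75 TPM and the coding one at 8.04, 2.97 and 3.06 TPM, so the order turned in replicates 1 and 2. The proton pump gene Atp6v1b2 overlaps Slc18a1 on the opposite strand at 105, 59.3 and 60.1 TPM, and its part in the Slc18a1 counts was not tested. The lowest of the class was the vesicular nucleotide carrier gene Slc17a9, at 0.53, 0.61 and 1.00 TPM.

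Carriers of nucleosides, nucleotide sugars and acetyl-CoA, 24 of 35, had 6 members above the median gene and 7 below. For expressed protein-coding genes the shares were 26.7% and 23.5%. Slc35f6 led with 35.8, 19.9 and 28.4 TPM. Slc29a1 (ENT1), which equilibrates adenosine across the plasma membrane, was at 13.4, 17.2 and 16.9 TPM, and Slc35a3, a UDP-N-acetylglucosamine carrier of the Golgi, at 20.6, 10.5 and 15.2 TPM. The lysosomal Slc29a3 (ENT3) averaged 4.63 ± 1.41 TPM (SD, n = 3). Slc33a1, the acetyl-CoA carrier of the endoplasmic reticulum, was below the median gene at 1.44, 0.81 and 0.86 TPM, as was Slc35c1, the GDP-fucose carrier of the Golgi, at 0.34, 0.24 and 0.26 TPM.

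Carboxylate and sugar carriers had the lowest class medians, 1.06 TPM over 7 members and 1.38 TPM over 11; the glucose and lactate carrier genes Slc2a1, Slc2a6 and Slc16a3 are among those left out by name. Slc16a6 (MCT7), which moves ketone bodies and taurine, was the only carboxylate member above the median gene, at 18.6, 15.7 and 25.4 TPM. Of expressed protein-coding genes 26.7% were above. Slc16a10, which carries aromatic amino acids despite its family, was at 13.5, 10.4 and 8.77 TPM. The lactate carrier Slc16a1 (MCT1) was below the median gene at 1.03, 0.11 and 0.20 TPM, highest in replicate 1, and Slc16a7 (MCT2) was at 0.52, 2.04 and 1.04 TPM. The lowest of the class, Slc16a13, was at 0.09, 0.26 and 0.43 TPM.

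Among sugar and sugar phosphate carriers, only Slc37a3 was above the median gene, at 46.8, 15 and 28.3 TPM. The share above among expressed protein-coding genes was 26.7%. Slc5a3, the sodium and myo-inositol cotransporter, gave 15.7, 7.26 and 13.1 TPM, and shares its strand and locus with Mrps6, at 4.93, 2.47 and 4.8 TPM. Slc37a2, a sugar phosphate carrier enriched in macrophages, was close to the median gene at 4.68, 5.09 and 4.97 TPM. Slc5a6, a vitamin transporter placed here by its family number, was the lowest of all 180 at 0.20, 0.17 and 0.27 TPM.

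Of 46 genes for carriers of vitamins, folate and organic ions, 13 were members and 22 had no count. Slc23a2, which takes up vitamin C with sodium, was the only member of the class above the median gene. It measured 64.6, 25.3 and 37.2 TPM, highest in replicate 1. The share above among expressed protein-coding genes was 26.7%. Slc10a1, the bile acid importer of hepatocytes, was at 6.52, 2.19 and 2.91 TPM, and Slc22a4, an ergothioneine transporter, at 2.6, 4.6 and 2.83 TPM. The folate carrier Slc19a1 was at 2.64, 2.10 and 1.85 TPM and the lysosomal Slc46a3 at 1.99, 2.03 and 1.02 TPM, while Slc46a1 was below the minimum with a mean of 0.037 TPM. At the bottom of the class was Slc22a23 with 0.27, 0.14 and 0.25 TPM. Both phosphate importers of family 20 passed, Slc20a1 with 20.7, 13.0 and 16.5 TPM and Slc20a2 with a mean of 2.27 TPM, and the 3 genes of family 34 had no count.

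**Figure D2:**
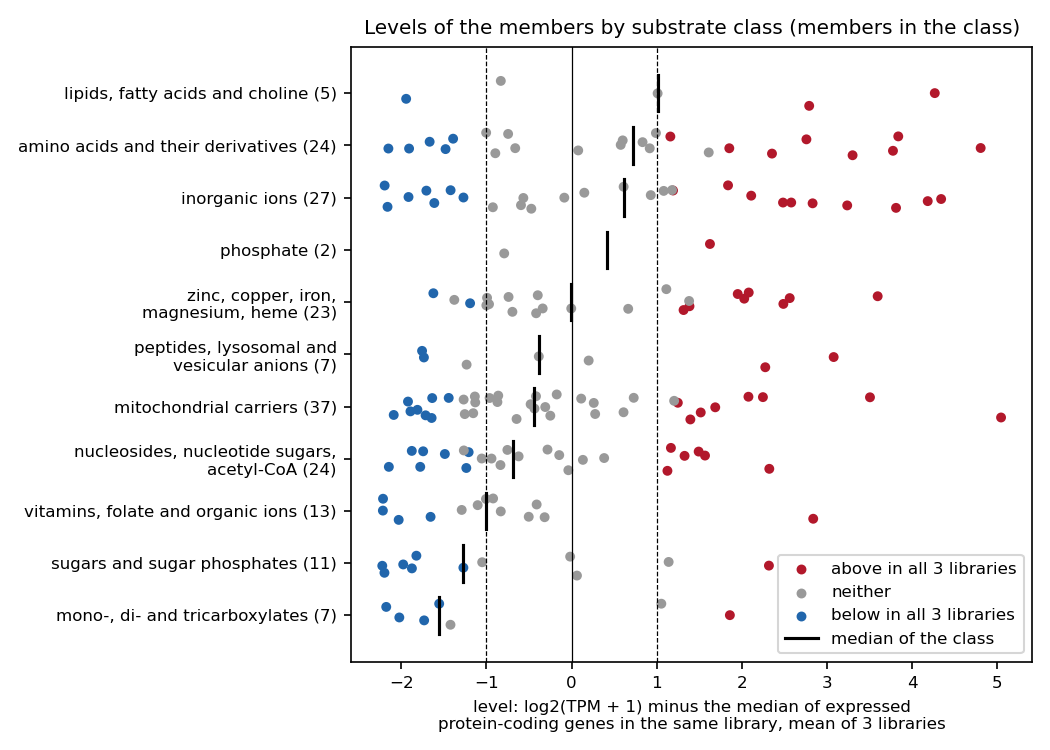
Level of each member (mean of 3 libraries, in log2 units relative to the median expressed protein-coding gene) by substrate class, with the class median as a bar and dashed lines at 1 and -1. Amino acid, ion, lipid and mitochondrial classes reach from under -1 to over 4, and carboxylate, sugar and vitamin classes have medians under -1.

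A list of 50 genes with Slc symbols known from macrophage biology, the scaffold gene Slc9a3r1 among them, had 47 genes over the minimum, 22 above the median gene and 3 below, beside 26.7% and 23.5% of expressed protein-coding genes. The list median was 11.2 TPM, against 3.43 TPM over all members. The list was chosen with earlier results of these data known, so its level is no independent evidence. The 3 genes under the minimum were Slc7a5, Slc1a4 and Slc46a1. Of 30 carrier genes without Slc and a number in their symbol, among them 3 of the Slco family, 29 were annotated. Of these, 26 passed, 11 were above and 3 below. Cln3, a lysosomal membrane protein mutated in Batten disease, was the highest of these at 484, 429 and 482 TPM, over Slc25a37 in every library; Unc93b1, which escorts endosomal Toll-like receptors, gave 70.0, 50.8 and 73.8 TPM. Of 16 genes for partners and regulators of carriers, 15 were annotated, 13 passed, 5 were above and 0 below. Nedd4l, a ubiquitin ligase that removes ion and amino acid carriers from the membrane, was at 192, 128 and 131 TPM, and Bsg, the chaperone of monocarboxylate carriers, at 4.29, 3.62 and 5.68 TPM. 

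Chromatin RNA holds unfinished and unspliced transcripts, and the annotation gives many genes transcripts that keep an intron or carry no reading frame. Here noncoding types are all types other than protein coding, and they include transcripts typed as nonsense-mediated decay. Among the 145 members with at least 1 TPM, 72 had over 50% of their TPM on transcripts not typed protein coding. The same held for 45.6% of the 8641 protein-coding genes at that level. The median share was 48.4% for the members and 46.4% for those genes, and the median share on retained-intron transcripts was 25.4% and 29.1%. Retained-intron transcripts alone held over 50% of the TPM in 42 members, while 18 members had no TPM on noncoding types, 3 of the 145 having a single annotated transcript. The members' median share was 53.1% in replicate 1, 47.2% in replicate 2 and 44.9% in replicate 3.

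The 5 members over 5 TPM with the largest noncoding share were Slc1a5, Slc35b1, Slc25a28, Slc27a1 and Slc4a7. Slc1a5 had all of its TPM on retained-intron transcripts in every library. Slc4a7, with 25 annotated transcripts, had 94.9, 95.2 and 95.02% on noncoding types, retained-intron and nonsense-mediated decay transcripts among them. Its transcripts typed protein coding held little of a high gene level. Slc27a1 had 98.6, 89.1 and 100% and Slc25a28 97.7, 93.9 and 96.6% on noncoding types.

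For the highest member, Slc25a37, the share depended on the library: 94.2% in replicate 1, 45.04% in replicate 2 and 54.4% in replicate 3. A retained-intron transcript of 3 exons had 176, 70.0 and 115 TPM, and a coding transcript, also of 3 exons, had 8.67, 76.0 and 60.6 TPM. The alignment-free table gave that coding transcript 161, 101 and 171 TPM. Slc44a1 was at the other end, with 2.40, 0.64 and 1.501% on noncoding types, and Slc9a9 had 36.97, 13.9 and 13.5%. Slc6a6 lay at 75.6, 73.1 and 72.5%, nearly the same in each library.

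**Figure D3:**
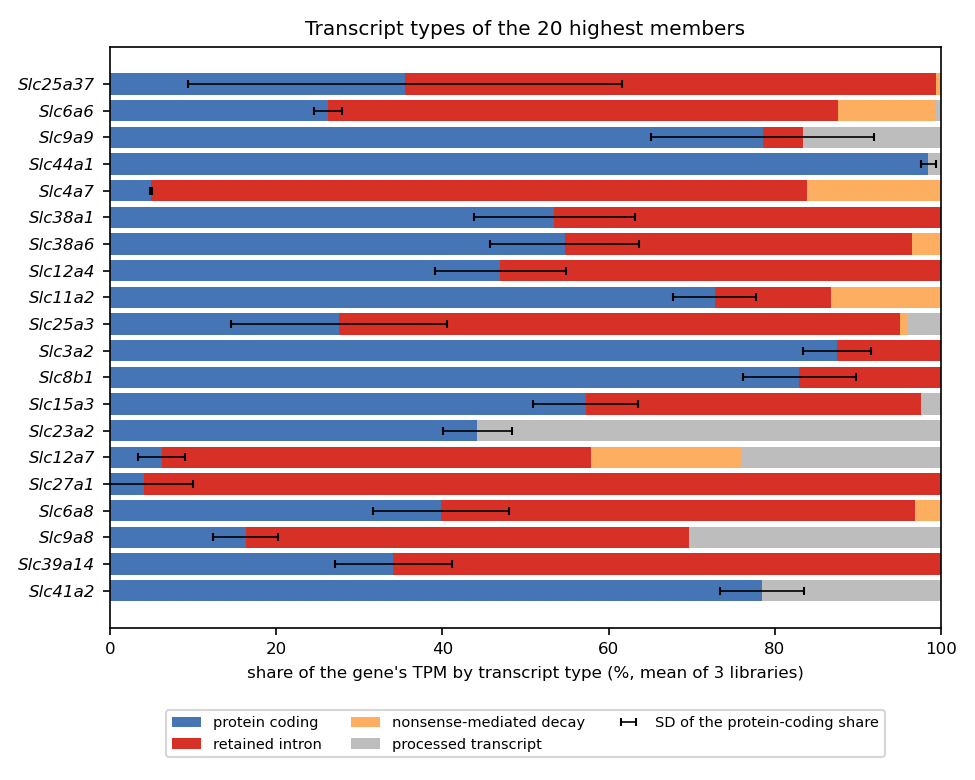
Share of each gene's TPM by annotated transcript type for the 20 highest members, as the mean of 3 libraries, with bars for the SD of the protein-coding share. Slc4a7 and Slc27a1 are nearly all types other than protein coding, and Slc44a1 is nearly all protein coding.

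Differences between libraries were described on log2 CPM, counts scaled to library size, with TMM normalisation. The median SD between the 3 libraries was 0.311 log2 units over the members and 0.358 over expressed protein-coding genes. Without replicate 1 it was 0.164 over the members and 0.165 over those genes. On this scale the highest value was in replicate 1 for 62 members, in replicate 2 for 69 and in replicate 3 for 49, whereas by TPM it was in replicate 1 for 108, replicate 2 for 15 and replicate 3 for 57.

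Slc6a6 was the steadiest member over 1 TPM, at 8.25, 8.21 and 8.26 log2 CPM, followed by Slc38a6 at 7.16, 7.19 and 7.22 and by Slc28a2, a sodium-coupled purine nucleoside importer, at 5.14, 5.21 and 5.13. Among the most variable were Slc25a39, a mitochondrial glutathione importer, at 1.64, 3.58 and 3.25 log2 CPM, and Slc8b1 at 5.97, 7.76 and 7.37. Slc39a11, a zinc carrier, was at 0.45, 2.07 and 2.21 log2 CPM and Slc26a11, an anion carrier of lysosomes, at 3.67, 5.47 and 4.91. All of these were lowest in replicate 1. Slc15a2 went the other way, at 2.52, 1.73 and 0.16 log2 CPM, and had the largest SD of members over 1 TPM, 1.20.

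The difference between replicate 1 and the mean of replicates 2 and 3 moved with base composition. Over the 180 members Spearman's rho between that log2 CPM difference and the GC content of the longest protein-coding transcript was -0.57, and over 10491 expressed protein-coding genes it was -0.56; genes of a library share its preparation and depth, so this is a description. Of the 60 members with the highest GC (53.8 to 60.9%), 47 were lower in replicate 1, with a median of -0.54. Of the 60 with the lowest GC (37.7 to 47.7%), 41 were higher in replicate 1, with a median of 0.22. Slc25a39, at 59.7% GC, and Slc8b1, at 56.9%, lie on the high side, and Slc15a2, at 43.5%, on the low side. The part of GC content in the levels above was not tested.

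**Figure D4:**
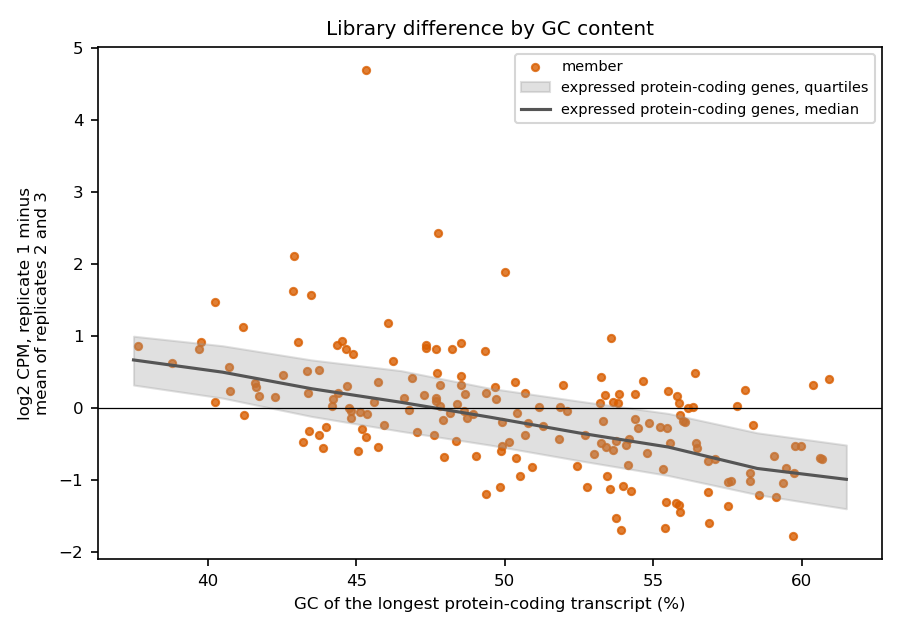
Log2 CPM in replicate 1 minus the mean of replicates 2 and 3 against the GC content of the longest protein-coding transcript, with 1 point per member and the median and quartiles of expressed protein-coding genes in grey. Member medians fall with GC as those of all genes do up to 60% GC, beyond which 4 members have a median of -0.19 against -0.99, and Slc1a2 stands apart near 4.69.

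Each library had been quantified by the authors both from alignments and without an alignment, and the alignment-free values had no part in the choice of members. The minimum count was set on the alignment-based table, for the members and for all genes tested alike, so one side of the difference is the quantification that chose them. Levels from both were compared by limma's treat test of a paired difference beyond 1 log2 unit, over 13427 genes, with Benjamini-Hochberg adjustment. Among the members 0 were called higher in the alignment-based table, with 0 at an unadjusted p under 0.05 and 0 by edgeR, and 1 was called lower. The background was 0.633% of genes called higher and 1.92% called lower. The median difference was 0.21 log2 units for the members and 0.23 for all genes with each library centred on its protein-coding median, and -0.34 and -0.32 without centring. All libraries carry 1 donor label, so the p-values cover only how far these samples vary, possibly for technical reasons.

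The member called lower was Slc7a7, at 9.65, 8.54 and 13.0 TPM in the alignment-based table, against 81.2, 34.4 and 54.02 TPM in the alignment-free table. The groups did not overlap, and the difference of levels was -1.72 ± 0.27 log2 units (SD, n = 3 pairs; limma's treat, adjusted p = 0.030). Without replicate 2 limma's adjusted p was 0.108 and no member was called. With no minimum count limma called 0 members lower, where it called 4.33% of all genes lower, and the adjusted p of Slc7a7 was 0.134. With edgeR, which compared rounded counts and not TPM levels, the difference was -0.79 (adjusted p = 1). By that test 6 other members were called lower, where edgeR called 7.35% of all genes lower. Over all alternatives the adjusted p ranged from 6.7e-05 to 1. The alignment-free table put 60.4% of the gene's TPM on noncoding types, against 0.669% in the alignment-based table. A processed transcript of 5 exons had 0 TPM in every library by alignment, against 32.6, 14.6 and 21.4 TPM without it. Oxa1l overlaps Slc7a7 on the opposite strand at 13.1, 6.48 and 9.63 TPM, and the strand setting was not given in the sources used here.

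**Figure D5:**
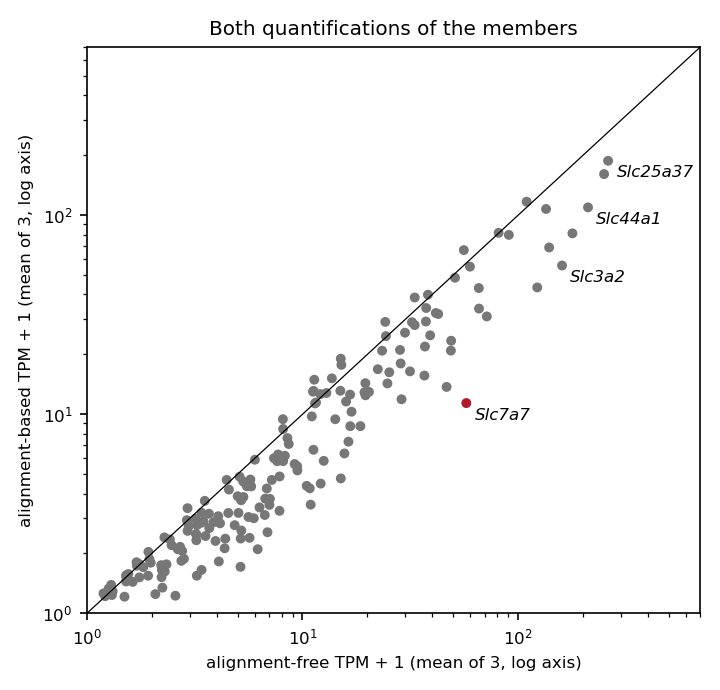
Mean alignment-based TPM + 1 against mean alignment-free TPM + 1 of the 180 members on log axes, with a line of equal values. Slc7a7, the 1 member called by the test, is marked in red under the line.

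Some counts rest on shared ground. An expressed gene overlapped 52 members, on the same strand for 12 and on the opposite strand for 43. Expected counts were whole numbers within 0.01 in all 3 libraries for 142 members, and the posterior SD of the count exceeded 10% of it for 2, Slc24a5 and Slc51a. The members' median gene length was 27636.5 bases, against 24864 for expressed protein-coding genes, with a median of 10 and 9 exons in the longest coding transcript and a median GC content of 50.2 and 49.8%.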

How the data were processed

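Gene and transcript tables of 3 libraries were used. Per the deposited descriptions, the authors aligned the reads of each library to the transcriptome (mm10, GENCODE M21) and estimated expected counts and TPM per gene and transcript, and separately quantified the reads with no alignment file, giving estimated counts and TPM per transcript. TPM are scaled over all entries of a file. A score deposited by the authors, the posterior SD of a gene's count, was also read. Which tools, versions and strand settings they used was not given in the sources used here. Levels were log2(TPM + 1) minus the library's median over protein-coding genes averaging 10 or more expected counts. Both quantifications were compared with limma 3.58.1 (treat, bound 1, Benjamini-Hochberg adjusted p under 0.05) on paired differences; library spread used edgeR 4.0.16 (TMM, prior count 2). Expected counts were rounded for edgeR and DESeq2 1.42.0, whose test and size factors, in that order, were alternatives. R was 4.3.3 and Python 3.11. The tests were tested on simulated data. The simulated differences were larger than that of Slc7a7, so they do not bear on that call. Alternatives were the pseudocount, the minimum count, the reference genes, centring, the quantification, the normalisation, the test and leaving out each replicate.

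Members named are the 10 highest, the 3 highest and the lowest of each class, and those called between quantifications. Also named are the 5 most and 3 least variable over 1 TPM, and the 5 over 5 TPM with the largest noncoding share. The 2 on either side of the minimum and a list of 50 macrophage transporters complete the choice. The members and lists were chosen with earlier results of these data known. Classes follow family numbers. Promoter sequences are from RefSeq.

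Some items among the named genes are not reported here.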

Additional observations from a re-analysis of the deposited data

How the results depend on the processing

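The count of members above the median gene was 23 when the reference genes had a mean count of at least 100 and 116 with no minimum, against 48 as reported; the count below was 95 and 0, against 46. Leaving out 1 replicate gave 49 to 56 above and 50 to 51 below. The shares of all expressed genes under these alternatives were not computed, so these counts do not set the members apart from other genes. With no minimum the reference median lay near 0 by construction, 37 of the 46 members below turned positive in all 3 libraries, and the mean level turned positive for the 14 named among those 46: Slc33a1 (0.75), Slc12a2 (0.63), Slc41a1 (0.62), Slc17a9 (0.51), Slc51a (0.30), Slc16a1 (0.22), Slc25a15 (0.15), Slc35c1 (0.10), Slc1a2 (0.0916), Slc16a13 (0.0661), Slc4a11 (0.0474), Slc22a23 (0.0268), Slc23a1 (0.0285) and Slc5a6 (0.0196). With the posterior mean TPM, Slc1a2 turned to 0.62, for which the cause was not tested.

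Members called lower in the alignment-based table numbered 0 with no minimum count (4.33% of all genes), 6 with edgeR (7.35% of all genes) and 0 to 1 when 1 replicate was left out, against 1; the cause was not tested. Members called higher numbered 0 under each alternative. Members with over 50% noncoding TPM numbered 45 of 75 (60%) at a minimum of 5 TPM, against 72 of 145 (49.7%) as reported. The share over all genes at 5 TPM was not computed. Without 1 replicate such members numbered 63 to 73 of 145, and the share over all genes was not computed there either. The median SD between libraries was 0.164 to 0.395 over the members without 1 replicate, and 0.165 to 0.416 over expressed protein-coding genes. No paired analysis was possible because there is only 1 group, so replicate numbers pair no samples of different groups; the paired differences reported are between tables of the same library. Depth limits the lowest members, some of which rest on about 10 counts.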
